A study of Mus musculus with 47 samples.

Results

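The genes described here are 10 members of the signalling axis that runs from leukaemia inhibitory factor (LIF) and interleukin-6 through their receptors to the transcription factor STAT3. They are the ligands *Lif* and *Il6*, the receptor chains *Lifr*, *Osmr*, *Il6st* and *Il6ra*, *Stat3* itself, and *Socs3*, *Cebpd* and *Bcl3*, which are known targets of STAT3. They were chosen by name, and all 10 were found by their Ensembl identifiers among the 17078 genes of the table. RNA-seq was performed on luminal (Lin-CD24+CD29lo) and basal (Lin-CD24+CD29hi) mammary epithelial cells that were sorted from wild-type FVB/N mice at 8 time points. The lineage antibodies of the sort were directed at leukocytes (CD45, CD11b, Ly-6G/C), red cells (Ter-119), endothelium (CD31) and fibroblasts (CD140a, listed as an antibody to the human protein), which this gate is meant to remove. Never pregnant mice were 10 weeks old (W10) or 4 months old (M4), and pregnant mice were collected at day 3.5 (P3.5) and day 14.5 (P14.5). Lactating mice were collected at day 3 (L3) and day 10 (L10), and mice with involuting glands 2 days (Id2) and 4 weeks (Iw4) after their litters were removed at day 10 of lactation. The M4 mice were the age-matched controls of the parous Iw4 mice. Each sort pooled the glands of several mice, both cell types of a sort came from the same animals, and the gates were adjusted between time points. Values of 46 libraries were used, 3 for each of the 16 conditions except P14.5 and L10 basal cells with 2 each, and their depth ranged from 4398806 to 20023054 reads on genes. Levels are normalized CPM, reads scaled to a common library size, and 3 reads, the smallest level taken as measured, were worth 0.17 to 1.05 CPM.

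Cytokines of the interleukin-6 family bind a specific receptor chain that pairs with the shared signal transducer gp130, the product of *Il6st*. LIF signals through the LIF receptor and gp130, oncostatin M through the product of *Osmr* and gp130, and interleukin-6 through its own receptor chain, encoded by *Il6ra*, and a pair of gp130 molecules. JAK kinases bound to these chains phosphorylate STAT3, which moves to the nucleus and induces, among others, *Socs3*, whose product blocks gp130 signalling. In the mammary gland this axis is best known from weaning, when luminal cells secrete LIF, STAT3 is activated, and the milk-producing epithelium begins to die. Activation of STAT3 is a phosphorylation and was not measured by these libraries.

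Marker genes of each cell type were checked first. Luminal libraries held 4061 to 9219 CPM summed over 6 luminal genes, and basal libraries 215 to 2273 CPM. The 8 basal genes, led by *Acta2*, *Krt14* and *Myh11*, summed to 12155 to 75497 CPM in basal libraries outside Id2 and to 84.0 to 2610.2 CPM in luminal libraries. At Id2, however, basal replicates 2 and 6 held only 1355 and 1043 CPM of basal markers, against 17823 CPM in replicate 4, and no basal marker was at 0. Replicate 2 held 9153.5 CPM of 6 endothelial genes, led by *Cdh5*, and replicate 6 held 71669 CPM of 6 fibroblast genes, led by *Col1a1*. Replicate 4 held 10770 CPM of 6 pericyte genes, led by *Rgs5*, and 10155 CPM of fibroblast genes. The part of these cells in the results was not tested, and values with replicate 4 alone for Id2 basal cells are given beside the members' differences that rest on these libraries. In these values Id2 basal cells are 1 library, which is assumed to vary like the other conditions, so that they are read for their size, and a call made or lost with it is no test of the spread at Id2. The same holds where leaving out 1 library leaves P14.5 or L10 basal cells with 1. Replicate 4 alone was not computed for the other pathway genes or the tests over all time points. In bulk libraries, fewer cells of a type and less RNA per cell cannot be told apart.

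**Figure D1:**
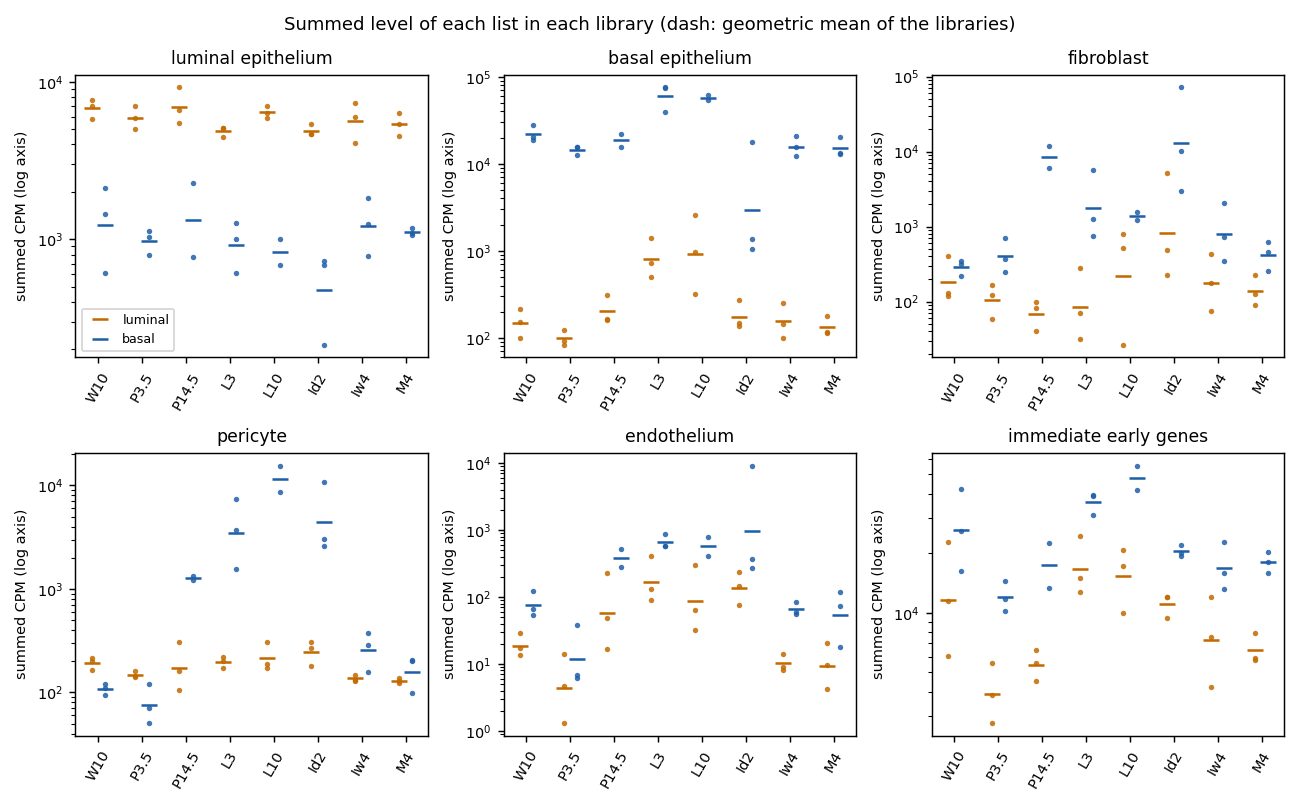
Summed CPM (log axis) of 5 marker lists and of the immediate early list in each library by time point, with luminal libraries in orange, basal libraries in blue, a point for each library and a dash for their geometric mean. The Id2 basal libraries spread from 1043 to 17823 CPM for basal markers and from 3023 to 71669 CPM for fibroblast markers.

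The stretch of 250 bases before the annotated start was searched on both strands for the STAT element TTCNNNGAA and for TGANTCA, which takes in the AP-1 element bound by FOS and JUN proteins. Sequences were available for 9 members (RefSeq, GRCm38.p6). The STAT element was found in 1 of them, *Socs3*, against 7.02% of 32851 promoters, and the AP-1 element in *Lif* and *Il6*, against 6.75% of promoters. The 3 sequences with a match are shown because *Socs3* is a known target of STAT3 and *Lif* and *Il6* are ligands of the axis. Capitals mark the match, which begins 154 bases before the start in *Socs3* (chr11:117969367-117969616, minus strand), 228 in *Lif* (chr11:4257318-4257567, plus strand) and 249 in *Il6* (chr5:30012864-30013113, plus strand).
Socs3: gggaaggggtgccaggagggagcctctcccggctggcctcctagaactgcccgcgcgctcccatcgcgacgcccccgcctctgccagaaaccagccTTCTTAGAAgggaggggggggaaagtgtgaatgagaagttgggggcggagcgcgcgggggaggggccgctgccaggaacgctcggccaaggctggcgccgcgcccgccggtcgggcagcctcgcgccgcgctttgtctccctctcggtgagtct
Lif: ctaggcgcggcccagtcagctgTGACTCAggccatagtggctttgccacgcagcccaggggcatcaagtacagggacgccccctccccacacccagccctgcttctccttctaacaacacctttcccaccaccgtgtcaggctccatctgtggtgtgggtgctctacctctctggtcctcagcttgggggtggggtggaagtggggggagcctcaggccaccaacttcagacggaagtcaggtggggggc
Il6: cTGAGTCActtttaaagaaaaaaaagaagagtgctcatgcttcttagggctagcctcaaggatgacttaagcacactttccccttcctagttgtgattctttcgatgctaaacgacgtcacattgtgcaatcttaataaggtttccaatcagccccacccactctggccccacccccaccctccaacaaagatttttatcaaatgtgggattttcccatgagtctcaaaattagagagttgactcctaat
A match of letters in this window is a description and not a site of binding.

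To ask where the axis is expressed, basal and luminal cells were compared over the 8 time points. *Lif* was the ligand of luminal cells, whereas *Il6* and the receptor genes *Lifr*, *Osmr* and *Il6st* were higher in basal cells, as was the inhibitor *Socs3*. *Il6ra* was higher in luminal cells, and *Stat3*, *Cebpd* and *Bcl3* differed by less than 2-fold. Calls required a change of 2-fold or more together with a limma false discovery rate below 0.01. Over the mean of the time points 5 members were called higher in basal cells, as were 13.6% of all genes, and 2 in luminal cells, as were 7.35%, which makes 7 of 10 against 21% of all genes. At single time points 41 of 80 pairs of member and time point were called. They were 5 members at W10 (14.2% of all genes), 4 at P3.5 (11.9%), 4 at P14.5 (12.9%), 7 at L3 (25.8%), 6 at L10 (24.7%), 6 at Id2 (21.6%), 4 at Iw4 (11.5%) and 5 at M4 (12.4%). The marker lists moved with this comparison, since all 8 basal, 6 of 6 fibroblast, 6 of 6 endothelial and 5 of 6 pericyte genes were called higher in basal cells, 2 of 3 adipocyte genes likewise, and 0 of 7 leukocyte genes in either direction. Without Id2, 8 members were called over the mean (*Bcl3* in addition, at -1.04) and 35 at single time points. The share of all genes called without Id2 is not given here. The fits on each time point alone, which hold 5 or 6 libraries, called 28 of the 80 pairs. Over all genes they called 1977 at W10 (2429 with all conditions), 2489 at P3.5 (2033), 1502 at P14.5 (2208) and 1691 at L3 (4405). They called 556 at L10 (4217), 327 at Id2 (3690), 1679 at Iw4 (1970) and 2316 at M4 (2125). With replicate 4 alone for Id2 basal cells, the 6 members called at Id2 kept their direction. Their differences were 1.26 for *Lifr*, 1.31 for *Osmr*, 1.64 for *Il6st*, 4.66 for *Il6*, -2.03 for *Lif* and -2.29 for *Il6ra*.

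**Figure D2:**
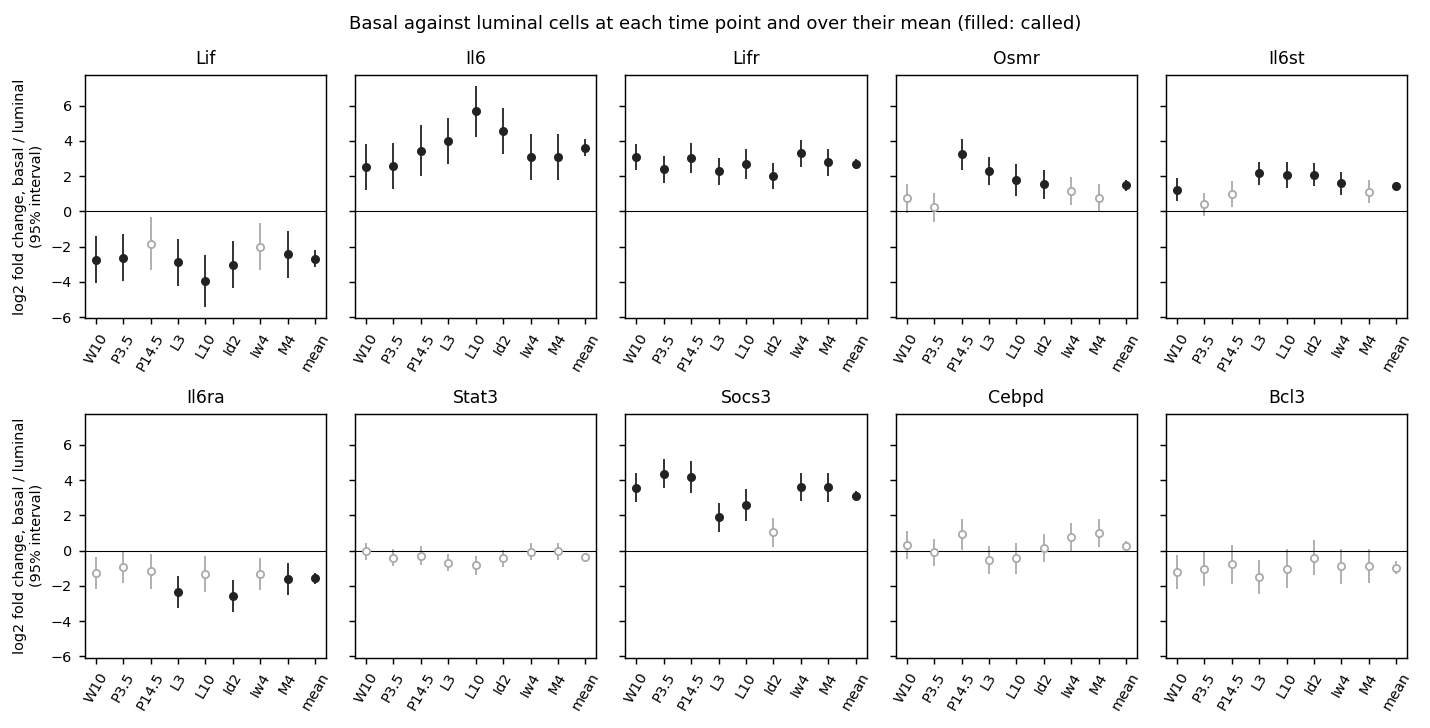
Log2 fold change of basal over luminal cells (vertical axis) for the 10 members at each time point and over the mean of the time points, with 95% intervals, filled where called. *Lifr* and *Il6* lie above 0 at 8 of 8 time points with every point filled, *Lif* lies below 0 at 8 of 8, and *Stat3* is not filled at any.

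*Lif*, the ligand that starts the response to weaning, was higher in the luminal library of 22 of 22 sorts. Over the 24 luminal libraries it ranged from 21.4 CPM over a median of 194 to 1562 CPM, and over the 22 basal libraries from 4.27 over 29.5 to 329 CPM. The mean difference between basal and luminal cells was -2.69 on the log2 scale (SE 0.24, limma adjusted p = 2.2e-12). The call was made at 6 of 8 time points, and at P14.5 and Iw4 the differences were -1.84 (adjusted p = 0.069, limma) and -2.0 (adjusted p = 0.028, limma). The difference at Id2, at -3.03, was -2.03 with basal replicate 4 alone. Other calls at single time points often rested on 1 library. At W10 the call was lost without basal replicate 6 (-1.99) or luminal replicate 3 (-2.47). At P3.5 it was lost without replicate 2 or 6 of either cell type (-2.48 to -2.68), and at L10 without basal replicate 6 (-2.12). At M4 it was lost without any of the basal replicates or luminal replicate 1 or 6 (-2.19 to -2.65). Within luminal cells, Id2 stood alone at the top. The next 7 time points, from W10 at 357 ± 135 CPM (SD, n = 3) to L3 at 132 ± 98.2 CPM (SD, n = 3), overlapped each with its neighbour in the order. The low end of L3 was a single library, replicate 6, at 21.4 CPM against 167 and 208 CPM.

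*Il6*, the other ligand, had the reverse pattern and was higher in the basal library of 22 of 22 sorts. In luminal cells it lay at 0.139 to 21.2 CPM outside Id2 and at or under 3 reads in 3 libraries. The mean difference between basal and luminal cells was 3.62 on the log2 scale (SE 0.23, limma adjusted p = 2.6e-16). It was called at all 8 time points, from 2.53 at W10 to 5.69 at L10. The calls at W10 and P3.5 were lost without 1 library, namely basal replicate 3 or luminal replicate 3 or 6 at W10 (2.26 to 2.34) and basal replicate 6 or luminal replicate 2 or 4 at P3.5 (2.11 to 2.49). At P14.5 the call was lost without basal replicate 3 (2.81), and at W10 also with edgeR (2.83, adjusted p = 0.01). In basal cells the order from the top was Id2 at 1587 ± 867 CPM (SD, n = 3), L10 at 357 ± 14.4 CPM (SD, n = 2), and then L3 at 98.0 ± 44.3 CPM (SD, n = 3) and P14.5 at 68.0 ± 39.6 CPM (SD, n = 2), which overlapped. The Iw4 libraries lay at 25.0 to 28.2 CPM and the W10, M4 and P3.5 libraries at 4.55 to 22.8 CPM. The pericyte list was also higher from P14.5 to Id2, with its top at L10 and not at Id2. It summed to 50.8 to 122 CPM in W10 and P3.5 basal libraries, 1227 and 1322 CPM at P14.5, 1547 to 7380 CPM at L3, 8683 and 15512 CPM at L10, and 2624 to 10770 CPM at Id2, with *Rgs5* the most abundant gene from P14.5 to Id2. Genes of cells that the lineage gate is meant to remove were also measured in these basal libraries. Fibroblast genes summed to 220 to 349 CPM at W10, 5943 and 11676 CPM at P14.5, 1221 and 1570 CPM at L10, and 3023, 10155 and 71669 CPM at Id2 in replicates 2, 4 and 6. Endothelial genes summed to 53.2 to 122 CPM at W10, 410 and 794 CPM at L10, and 275 to 9153 CPM at Id2, and adipocyte genes, which the gate does not name, to 12.6 to 39.4 CPM at W10, 742 and 765 CPM at L10, and 242 to 3720 CPM at Id2, with replicate 2 the highest Id2 library for both. The part of these cells in the level of *Il6* was not tested.

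The LIF receptor gene *Lifr* was higher in the basal library of 22 of 22 sorts. It ranged from 32.0 over a median of 98.3 to 228 CPM in luminal libraries and from 167 over 679 to 1736 CPM in basal libraries. The difference was 2.69 on the log2 scale (SE 0.14, limma adjusted p = 2.1e-19), and it was called at all 8 time points, from 1.99 at Id2 to 3.29 at Iw4. With replicate 4 alone the Id2 difference was 1.26 and the mean difference 2.60. The basal W10 libraries had the highest mean, at 892, 1112 and 1736 CPM, and overlapped those of Iw4, which reached 1279 CPM, and the 3 P3.5 and 2 P14.5 libraries were the lowest outside Id2, at 167 to 363 CPM.

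The shared chain *Il6st* was higher in the basal library of 22 of 22 sorts, by 1.45 on the log2 scale (SE 0.12, limma adjusted p = 1.6e-13). It ranged from 219.8 over a median of 351 to 629 CPM in luminal libraries and from 312 over 1018 to 4849 CPM in basal libraries. It was called at W10, L3, L10, Id2 and Iw4, and with the sort as a block also at M4 (1.11, limma adjusted p = 0.0039). The difference at P3.5 was 0.39 (95% interval -0.26 to 1.04). The W10 call was lost without basal replicate 3 or 6 or luminal replicate 3 or 6 (1.15 to 1.21). The highest value, 4849 CPM, was Id2 basal replicate 2, the library with the endothelial markers, and the other Id2 basal libraries held 1575 and 1268 CPM.

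*Osmr*, the receptor chain for oncostatin M, was called between the cell types at 4 of 8 time points, and whether the difference changed with stage was not tested. It was higher in the basal library of 21 of 22 sorts, and the mean difference was 1.47 (SE 0.14, limma adjusted p = 2.8e-11). It was called at P14.5, L3, L10 and Id2, and not at W10 (0.73, 95% interval -0.07 to 1.53), P3.5 (0.22, 95% interval -0.58 to 1.02), Iw4 (1.16) or M4 (0.78). The L10 call was lost without either basal library (1.78 and 1.80), and the Id2 call without luminal replicate 2 or 4 (1.47 and 1.5), and with basal replicate 4 alone the difference was 1.31. Luminal cells held 289, 653 and 432 CPM at W10 and 56.3, 27.0 and 36.0 CPM at P14.5, which are the highest and lowest luminal time points. No value of *Osm*, the ligand of this receptor, was used here.

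*Il6ra*, the specific chain for interleukin-6, was higher in the luminal library of 22 of 22 sorts. It ranged from 28.2 over a median of 74.8 to 315 CPM in luminal libraries and from 12.0 over 27.9 to 84.0 CPM in basal libraries. The difference was -1.57 (SE 0.16, limma adjusted p = 7.4e-11), and it was called at L3 (-2.34), Id2 (-2.57) and M4 (-1.60), and with the sort as a block also at L10 (-1.41, limma adjusted p = 0.0099). The M4 call was lost without any basal library or luminal replicate 1 or 6 (-1.40 to -1.72). At W10 it was gained without basal replicate 3 (-1.90) and at L10 without luminal replicate 4 (-1.81). Each ligand and its specific receptor chain were thus called in opposite cell types over the mean, *Lif* and *Il6ra* in luminal cells and *Lifr* and *Il6* in basal cells.

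*Stat3*, the factor on which these receptors converge, was expressed in both cell types, at 423 to 1076 CPM in luminal and 308 to 1004 CPM in basal libraries. It was higher in the luminal library of 19 of 22 sorts, by a mean log2 difference of -0.34 (95% interval -0.52 to -0.17, limma adjusted p = 0.0008), which is under the 2-fold limit. It was not called between the cell types at any of the 8 time points. The largest difference was at L10, at -0.82 (95% interval -1.36 to -0.28). About 0.756% of its exon bases are shared with *Stat5a* on the other strand.

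*Socs3*, the feedback inhibitor of gp130 signalling, was higher in the basal library of 22 of 22 sorts. It ranged from 18.1 over a median of 83.0 to 683 CPM in luminal libraries and from 412 over 675 to 1648 CPM in basal libraries. The difference of 3.10 (SE 0.15) had a limma adjusted p of 3.3e-20, and without Id2 it was 3.40. It was called at 7 of 8 time points. The exception was Id2, where luminal cells held 384, 205 and 239 CPM and basal cells 479, 528 and 644 CPM, without overlap, and the difference was 1.04 (adjusted p = 0.043, limma), and 0.99 with basal replicate 4 alone. The distance between the cell types was 4.36 at P3.5 and 1.89 at L3. Immediate early and dissociation-responsive genes moved with this comparison, since 5 of 14 were called higher in basal cells and 0 lower, and the list's median difference was 0.89. Its sum was 10211 to 55329 CPM in basal libraries, with *Egr1* or *Zfp36* the most abundant, and 2781 to 24467 CPM in luminal libraries, led by these genes, *Fosb* or *Dusp1*. Their part in the level of *Socs3* was not tested.

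*Cebpd* encodes a transcription factor that promotes cell death in involution, and *Bcl3* a partner of NF-kappaB. *Cebpd* was higher in the basal library of 14 of 22 sorts, and the mean difference was 0.26 (95% interval -0.02 to 0.55, limma adjusted p = 0.1). Its 15% of exon bases that overlap *Spidr* on the other strand make reads of these genes hard to separate where strand was not used in counting. *Bcl3* was higher in the luminal library of 20 of 22 sorts, by -0.96 (95% interval -1.32 to -0.61, limma adjusted p = 1e-05), just under the 2-fold limit. It was called over the mean when any of 6 libraries was left out, W10 basal replicate 3 (-1.06), P3.5 basal replicate 4 (-1.02), P14.5 basal replicate 3 (-1.01), L3 basal replicate 5 (-1.0), L3 luminal replicate 6 (-1.01) or L10 basal replicate 5 (-1.02). At L3, at -1.49, it was called with the sort as a block (limma adjusted p = 0.0047), and without basal replicate 5 (-1.83) or luminal replicate 6 (-1.84), and at W10 without basal replicate 3 (-2.0).

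Per kilobase of exon, and averaged over the time points, *Lif* was the most abundant member in luminal cells at 79.8 CPM per kilobase, followed by *Stat3* at 66.9 and *Socs3* at 48.2. That place of *Lif* rests on Id2, where it stood at 311 CPM per kilobase against 30.4 to 82.1 elsewhere, and *Stat3* was above *Lif* at 6 of 8 time points. In basal cells *Socs3* led at 280.2 CPM per kilobase, followed by *Il6* at 112 and *Il6st* at 109.9, of which the mean of *Il6* rests mainly on Id2 and L10. *Lifr* stood at 61.6 CPM per kilobase in basal and 9.23 in luminal cells, and *Il6* at 4.53 in luminal cells.

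**Figure D3:**
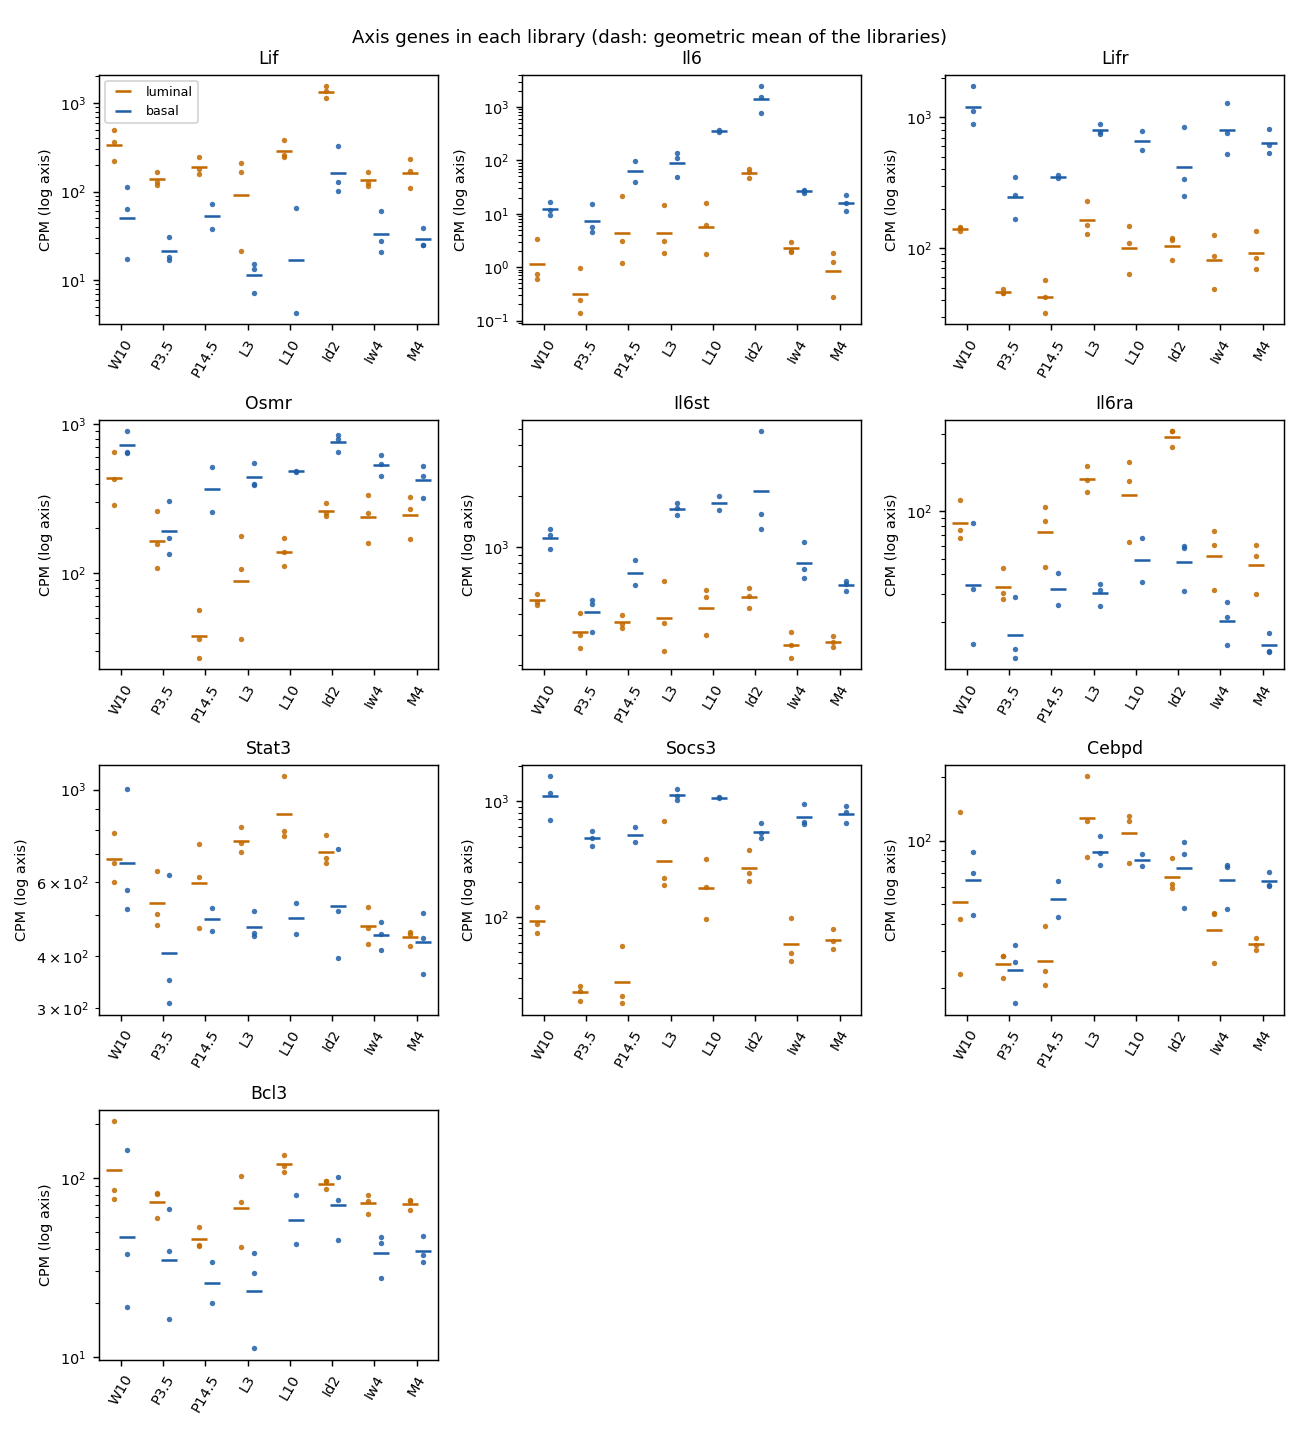
CPM (log axis) of the 10 members in each library by time point, with luminal libraries in orange, basal libraries in blue, a point for each library and a dash for their geometric mean. Luminal *Lif* lies at 1146 to 1562 CPM at Id2 and at 21.4 to 490.3 CPM elsewhere, and basal *Il6* at 760.0 to 2489 CPM at Id2.

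Whether the members changed over time was tested within each cell type by a moderated F test over the 8 time points. In luminal cells 8 of 10 varied (34% of all genes did), and *Il6st* (adjusted p = 0.07, limma) and *Bcl3* (adjusted p = 0.22, limma) did not pass. In basal cells 7 of 10 varied (44.5% of all genes), and *Socs3*, *Stat3* and *Bcl3* did not pass, with limma adjusted p = 0.027, 0.19 and 0.096. Without Id2, 6 members passed in luminal and 4 in basal cells, and the share of all genes without Id2 is not given here. Luminal *Lif* then had a limma adjusted p of 0.18 and luminal *Il6* of 0.018, and basal *Lif*, *Il6ra* and *Osmr* of 0.094, 0.033 and 0.011.

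The response to weaning was followed from L10 to Id2. In luminal cells *Lif* stood at 244, 384 and 256 CPM at L10 and at 1146, 1357 and 1562 CPM at Id2. The groups did not overlap, and the share of all genes without overlap is not given here. The log2 fold change of 2.22 (SE 0.66) did not pass at a limma adjusted p of 0.023. Luminal *Il6* stood at 1.73, 16.2 and 6.13 CPM at L10 and at 47.8, 70.0 and 60.6 CPM at Id2. It was the 1 member called in luminal cells (4.56% of all genes were called), at 3.11 (SE 0.64, limma adjusted p = 0.0012). The call was lost without L10 luminal replicate 4 (2.43, limma adjusted p = 0.02), with edgeR (adjusted p = 0.013) and with limma on the conditions compared alone (adjusted p = 0.082). On the conditions compared alone 0 of all genes were called, against 779 with all conditions. DESeq2 called both *Il6* and *Lif* (adjusted p = 0.005 for *Lif*). Luminal *Il6ra*, at 63.3, 153 and 200.7 CPM before and 314, 249 and 315 CPM after weaning, had a change of 1.21 (limma adjusted p = 0.068). *Cebpd*, *Stat3* and *Bcl3* had luminal changes of -0.68, -0.30 and -0.36, with intervals of -1.47 to 0.10, -0.78 to 0.19 and -1.33 to 0.61. In the same step 3 of 8 basal marker genes, *Krt5*, *Krt14* and *Krt17*, were called lower in the luminal libraries, and no immediate early, fibroblast or leukocyte gene was called by limma (0 of 14, 0 of 6 and 0 of 7). The fibroblast list nevertheless had a median change of 1.95, with sums of 26.7, 515 and 788 CPM at L10 and 223, 485 and 5192 CPM at Id2, led by *Col1a1*, and the leukocyte list one of 1.59, with sums of 38.3 to 268 CPM at L10 and 44.5 to 222 CPM at Id2. The fibroblast sum was lowest in L10 replicate 4, the library without which the *Il6* call was lost. The part of these cells in the luminal change of *Il6* was not tested.

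In basal cells *Lif* was the 1 member called from L10 to Id2 (13.3% of all genes were called), at 3.13 (SE 0.74, limma adjusted p = 0.0018). It stood at 65.7 and 4.27 CPM at L10 and at 102, 329 and 129 CPM at Id2, and the L10 libraries differed widely. Without L10 basal replicate 6, at 4.27 CPM, the change was 1.30, and without L10 basal replicate 5, at 65.7 CPM, it was 4.96. Without Id2 basal replicate 4 it was 2.63, and the call was lost (limma adjusted p = 0.012). The call was also lost with edgeR (2.45, adjusted p = 0.021) and with limma on the conditions compared alone (adjusted p = 0.29). On the conditions compared alone 0 of all genes were called, against 2274 with all conditions. With replicate 4 alone at Id2 the change of *Lif* was 4.14. Basal *Il6*, at 347 and 367 CPM before and 2489, 1511 and 760.0 CPM after, changed by 1.99 (limma adjusted p = 0.037), and by 2.08 with replicate 4 alone. *Socs3* was at 1089 and 1063 CPM before and 479, 528 and 644 CPM after weaning, a change of -0.98 (limma adjusted p = 0.11), and of -1.03 with replicate 4 alone. All 8 basal marker genes were called lower in this step, 2 of 6 fibroblast genes higher, 2 of 6 pericyte genes lower and 6 of 14 immediate early genes lower.

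The change on weaning was compared between the cell types in the same model. Of the 10 members 0 were called (3.73% of all genes were), with 1 member at an unadjusted p under 0.05 and 0 called by edgeR or DESeq2. That member was *Socs3*, at -1.55 (95% interval -2.77 to -0.33, limma adjusted p = 0.096). For *Lif* the basal minus luminal difference was 0.91, with an interval of -1.09 to 2.92. It was -0.92 without L10 basal replicate 6. With Id2 basal replicate 4 alone the differences of *Socs3* and *Lif* were -1.60 and 1.92. The L10 and Id2 libraries were amplified in different batches and sequenced in different lanes, so that weaning and batch cannot be told apart.

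The Id2 and W10 libraries shared an amplification batch but not a sequencing lane, and the same genes were compared between them, so that stage and lane cannot be told apart. In luminal cells 3 members were called higher at Id2 (10.4% of all genes were called), *Il6* by 4.69 (SE 0.64), *Il6ra* by 1.77 (SE 0.44) and *Socs3* by 1.52 (SE 0.40), at limma adjusted p of 1.3e-06, 0.0033 and 0.0056. *Socs3* stood at 87.5, 73.1 and 121 CPM at W10 and *Il6ra* at 117, 67.8 and 75.4 CPM, both below every Id2 library. The *Il6ra* call was lost without Id2 luminal replicate 2 or 6 or W10 luminal replicate 5 or 6 (1.62 to 1.72). The *Socs3* call was lost without Id2 luminal replicate 2 or 6 or W10 luminal replicate 3 or 5 (1.26 to 1.60) and with limma on the conditions compared alone (adjusted p = 0.024). Luminal *Lif* differed by 1.98 (SE 0.66, limma adjusted p = 0.028), with W10 at 490.3, 219.7 and 362 CPM and no overlap. Leukocyte markers rose with this comparison, 6 of 7 genes called, from 9.46 to 17.8 CPM summed at W10 to 44.5 to 222 CPM at Id2, where *Cd68*, *Lyz2* or *Csf1r* was the most abundant and none of the 7 was at 0. Fibroblast markers rose in 3 of 6 genes and reached 5192 CPM in Id2 luminal replicate 6. Their part was not tested.

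In basal cells *Il6* was called higher at Id2 than at W10 and *Lifr* lower (17.4% of all genes were called). *Il6* stood at 16.4, 12.0 and 9.54 CPM at W10 and at 760.0 to 2489 CPM at Id2, a change of 6.73 (SE 0.64, limma adjusted p = 2.7e-10), and of 6.82 with replicate 4 alone. *Lifr* fell by 1.52 (SE 0.37, limma adjusted p = 0.0017) from 892, 1112 and 1736 CPM to 847, 249 and 340.2 CPM. The *Lifr* call was lost without Id2 basal replicate 4 (-1.16) or 6 (-1.38) or W10 basal replicate 6 (-1.26), with limma on the conditions compared alone it had an adjusted p of 0.1, and with replicate 4 alone the change was -2.26. *Il6st*, at 0.91, was not called by limma except without Id2 basal replicate 6 (1.29), and was called by edgeR (1.15) and DESeq2 (1.27). It was 0.32 without Id2 basal replicate 2 and 0.47 with replicate 4 alone. In the same comparison 7 of 8 basal marker genes were called lower and 5 of 6 fibroblast, 5 of 6 endothelial and 6 of 6 pericyte genes higher.

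**Figure D4:**
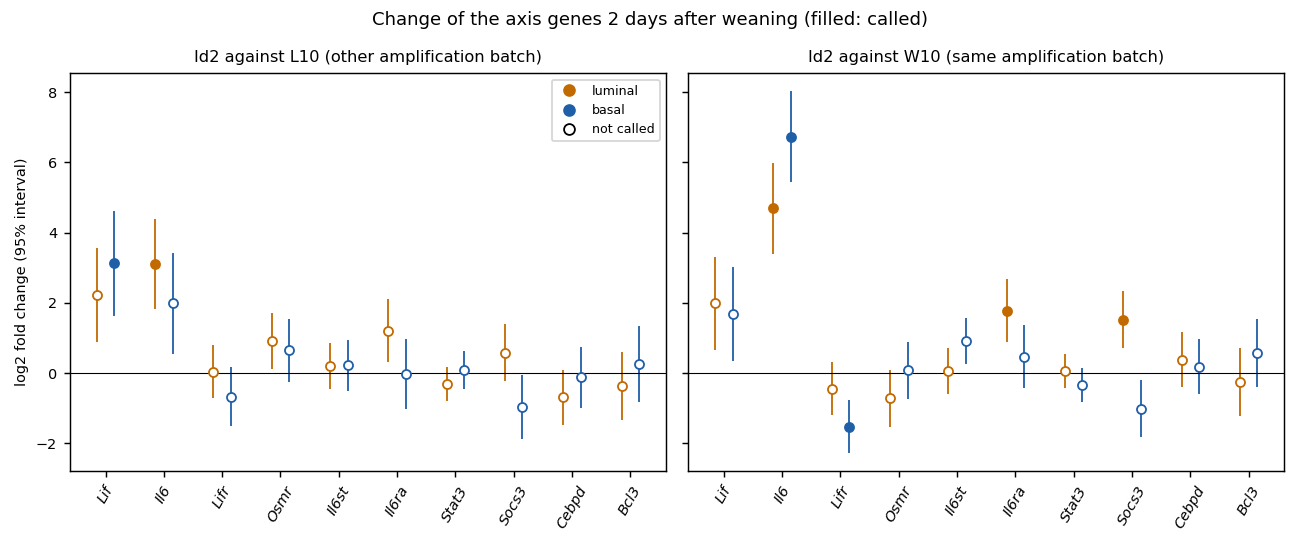
Log2 fold change (vertical axis) of the 10 members at Id2 against L10, left, and against W10, right, for luminal (orange) and basal (blue) cells with 95% intervals, filled where called. *Il6* has the highest value in both cell types on the right, at 4.69 and 6.73, and the interval of *Stat3* includes 0 in both cell types and both panels.

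By 4 weeks after weaning the ligands were low again in both cell types. From Id2 to Iw4, 4 members fell in luminal cells (10.5% of all genes were called), *Il6* by 4.19, *Lif* by 3.31, *Il6ra* by 2.45 and *Socs3* by 2.16 on the log2 scale, with limma adjusted p of 7.8e-06, 0.00033, 9.6e-05 and 0.00015. Luminal *Lif* stood at 127, 166 and 115 CPM at Iw4. In basal cells *Il6* fell by 5.69, *Lif* by 2.27 and *Il6st* by 1.41 (17.4% of all genes were called), with limma adjusted p of 1.4e-08, 0.008 and 0.00092. Basal *Il6* stood at 25.0, 28.2 and 26.2 CPM at Iw4 and did not overlap Id2. With replicate 4 alone at Id2 the values were -5.79 for *Il6*, -3.28 for *Lif*, -0.97 for *Il6st* and 1.67 for *Lifr*, whose value with all 3 Id2 libraries was 0.94. With limma on the conditions compared alone, the calls of basal *Lif* (adjusted p = 0.047), basal *Il6st* (adjusted p = 0.15) and luminal *Socs3* (adjusted p = 0.016) were lost, and basal *Lif* was not called with a pseudocount of 0.1 (limma adjusted p = 0.01). The *Il6st* call was lost without Id2 basal replicate 2 (-0.82) and the *Lif* call without Id2 basal replicate 4 or 6 or Iw4 basal replicate 5 or 6 (-1.77 to -2.44), and *Lifr* was called higher at Iw4 without Id2 basal replicate 2 (1.45). In this basal step 6 of 8 basal markers were called higher (median 5.40), and 4 of 6 fibroblast, 5 of 6 endothelial and 6 of 6 pericyte genes lower. In luminal cells 6 of 7 leukocyte and 3 of 6 pericyte genes were called lower. Their part was not tested, and the Id2 and Iw4 libraries share neither lane nor amplification batch, so that stage and batch cannot be told apart. Parous mice at Iw4 were then compared with M4 controls. In luminal cells 0 members were called, as were 0% of all genes, and in basal cells 0 members, against 0.00586% of all genes. No member reached an unadjusted p under 0.05 in either cell type (limma), and edgeR and DESeq2 called 0 members. Over all genes 392 in luminal and 322 in basal cells were under 0.05 unadjusted. The 95% intervals of the differences spanned -1.61 to 1.06 for luminal *Lif*, -0.93 to 0.70 for luminal *Socs3* and -0.44 to 1.07 for basal *Lifr*. The first and the last reach past a 2-fold change. Each Iw4 sort shared its amplification batch and lane with an M4 sort, and the model did not pair them. Within these pairs basal *Il6st* was higher at Iw4 each time (738 against 548, 1064 against 602 and 658 against 625 CPM). So were basal *Il6* and luminal *Il6*, the last at low levels. Basal *Osmr* stood at 544 against 320, 626 against 526 and 452.0 against 451.2 CPM, with the last pair nearly level. The other members went both ways. A paired test was not run.

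From W10 to early pregnancy, *Socs3* and *Lifr* fell in luminal cells and *Lifr*, *Osmr* and *Il6st* in basal cells. All 10 members had negative values at P3.5 against W10 in both cell types, of which 2 were called in luminal (1.82% of all genes) and 3 in basal cells (6.76%). The median of all genes was -0.06 in luminal and -0.10 in basal cells. In luminal cells *Socs3* fell by 1.99 (SE 0.40, limma adjusted p = 0.0026), from 87.5, 73.1 and 121 CPM to 25.7, 19.0 and 23.1 CPM. Luminal *Lifr* fell by 1.58 (SE 0.37, limma adjusted p = 0.0079), from 136, 145 and 143 CPM to 45.4, 49.0 and 45.3 CPM. For both genes the groups were far apart and narrow. The *Lifr* call was lost without any of the 6 libraries (-1.56 to -1.62) and the *Socs3* call without any P3.5 library or W10 replicate 6 (-1.79 to -2.08). With limma on the conditions compared alone both had an adjusted p of 0.02, and 0 of all genes were called, against 311 with all conditions. With edgeR the *Lifr* call was also lost (-1.61, adjusted p = 0.012).

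In basal cells *Lifr* fell by 2.28 (SE 0.37, limma adjusted p = 5.2e-05) from W10 to 256, 349 and 167 CPM at P3.5. *Osmr* fell by 1.90 (SE 0.40, limma adjusted p = 0.00084), from 899.8, 652 and 636 CPM to 135, 305 and 173 CPM, and *Il6st* by 1.46 (SE 0.32, limma adjusted p = 0.0015), from 1272, 971 and 1178 CPM to 462, 483 and 312 CPM. These are the 3 receptor chains that were higher in basal cells. None of their groups overlapped, and the share of all genes without overlap is not given here. *Cebpd*, at -1.39, was called with the sort as a block (limma adjusted p = 0.0099) and without W10 basal replicate 5 (-1.67), and *Stat3*, at -0.71, without P3.5 basal replicate 4 (-1.02). The *Osmr* call was lost without P3.5 basal replicate 2 (-1.64) and the *Il6st* call without P3.5 basal replicate 6 (-1.26). Immediate early genes were lower in the same step, with 3 of 14 called in luminal and 1 in basal cells and medians of -1.61 and -1.02, and luminal sums of 6020 to 22820 CPM at W10 and 2781 to 5555 CPM at P3.5. The W10 and P3.5 libraries also differ in amplification batch, and pregnancy, batch and the state of these genes cannot be told apart.

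Between P3.5 and P14.5, which shared an amplification batch but not a lane, luminal *Osmr* fell by 2.09 (SE 0.40, limma adjusted p = 0.0011), from 109, 264 and 157 CPM to 56.3, 27.0 and 36.0 CPM, and was the 1 luminal member called (1.52% of all genes). The call was lost without P3.5 luminal replicate 4 (-1.76) or P14.5 luminal replicate 3 (-1.85), and with limma on the conditions compared alone (adjusted p = 0.02). In basal cells *Il6* rose by 2.92 (SE 0.71, limma adjusted p = 0.0073), from 5.6, 4.55 and 14.9 CPM to 96.1 and 40.0 CPM (3.64% of all genes were called). That call was lost without P14.5 basal replicate 3 (2.29) or 5 (3.54) or P3.5 basal replicate 2 (2.75) or 4 (2.62), with edgeR (adjusted p = 0.018), with a pseudocount of 0.1 (limma adjusted p = 0.027) and with limma on the conditions compared alone (adjusted p = 0.031). Luminal *Il6*, at 0.139 to 0.954 CPM and then 21.2, 1.18 and 3.12 CPM, had a change of 2.06 by limma, and edgeR (4.17, adjusted p = 0.0078) and DESeq2 (4.19) called it. The size of this change is uncertain. At P3.5, 2 of 3 luminal libraries were at or under 3 reads, and the high P14.5 value was a single library, replicate 2. In this step 5 of 6 fibroblast, 5 of 6 pericyte and 4 of 6 endothelial markers also rose in basal cells. Their part in the change of *Il6* was not tested.

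With the onset of lactation, from P14.5 to L3, 3 members rose in luminal cells (6.17% of all genes were called). *Socs3* rose by 3.40 (SE 0.40, limma adjusted p = 4.7e-07), from 56.6, 21.0 and 18.1 CPM to 218, 189.8 and 683 CPM. *Cebpd* rose by 2.21 (SE 0.39, limma adjusted p = 0.00015), from 39.3, 24.1 and 20.502 CPM to 124, 83.9 and 202 CPM. *Lifr* rose by 1.92 (SE 0.37, limma adjusted p = 0.00044), from 56.6, 32.0 and 42.4 CPM to 129, 151 and 228 CPM. None of these groups overlapped, and the share of all genes without overlap is not given here. L3 replicate 6 was the highest library for each of the 3, and all 3 calls held without it. On the conditions compared alone the limma adjusted p were 0.043, 0.038 and 0.031, and 6 of all genes were called, against 1053 with all conditions. *Osmr*, at 1.21 (limma adjusted p = 0.036), was called without that library (1.84). In the same step 6 of 14 immediate early genes were called higher, with a median of 1.35 and L3 sums of 14929, 12672 and 24467 CPM against 4538 to 6457 CPM at P14.5, and 3 of 8 basal marker genes were called higher in these luminal libraries. In basal cells 0 members were called (3.89% of all genes), with 4 at an unadjusted p under 0.05 (limma) and 0 called by edgeR or DESeq2. From L3 to L10 0 members were called in luminal (0.381% of all genes) or basal cells (1.14%), with 1 and 2 at an unadjusted p under 0.05 (limma) and 0 by edgeR or DESeq2. P14.5 and L3 differ in amplification batch, whereas L3 and L10 shared one, and both pairs differ in lane. Luminal replicates 4 and 5 and basal replicate 5 of L3 and L10 were sorted on the same dates, which no fit took into account.

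Of the other genes of the pathway, 46 were in the table, in lists of ligands, receptor chains, kinases and STATs, inhibitors, and genes linked to STAT3 in involution. Over the mean of the time points 8 were called higher in basal cells (13.6% of all genes) and 7 in luminal cells (7.35% of all genes), with a median difference of -0.05 against 0.02 for all genes. Of the 3 other receptor chains 1 was called, in basal cells, *Cntfr* (2.32, SE 0.22), the receptor gene for ciliary neurotrophic factor. Of the 4 kinases and other STATs 0 were called in either direction by limma over the mean, and of the 8 inhibitors 3 were called in basal cells, among them the phosphatase gene *Ptprt* (2.67, SE 0.18). Of the 26 genes linked to STAT3 in involution 7 were called in luminal cells, led by *Clu* (-3.22, SE 0.19), which encodes a secreted chaperone, the lipopolysaccharide receptor gene *Cd14* (-3.11, SE 0.23), and the acute phase genes *Hp* (-3.08, SE 0.29), *Lbp* (-2.30, SE 0.18) and *Lrg1* (-2.26, SE 0.31). The 3 called in basal cells were *Fos*, *Irf1* and *Myc*, named after their values were seen, of which *Fos* is also in the immediate early list. These acute phase genes were called on the luminal side, as *Lif* was, and *Fos*, *Irf1* and *Myc* on the basal side, as *Socs3* was. A link between these genes and the members was not tested.

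From L10 to Id2 the pathway list had 5 of 46 called higher and 0 lower in luminal cells (2.15% and 2.41% of all genes), with a median of 0.41 against -0.01 for all genes. They were *Timp1* (2.85, SE 0.69), an inhibitor of matrix proteases, the acute phase gene *Lbp* (1.91, SE 0.49), the lysosomal protease genes *Ctsb* (1.81, SE 0.26) and *Ctsl* (1.76, SE 0.31), and the angiogenic factor gene *Vegfa* (1.5, SE 0.38). All 5 belong to the 26 genes linked to STAT3 in involution. Against W10, 9 of these 26 were called higher at Id2 and 0 lower in luminal cells (6.23% and 4.14% of all genes), led by *Clu* (3.78, SE 0.51), *Lbp* (3.60, SE 0.49), *Timp1* (2.98, SE 0.69) and *Cd14* (2.74, SE 0.63). These genes were placed in the list for what is known of involution, so that their direction is not independent evidence. Leukocyte and fibroblast markers rose in the same luminal comparison with W10, as given above, and their part was not tested. In basal cells 10 of 46 were called higher and 6 lower from L10 to Id2 (5.63% and 7.68% of all genes), led by *Timp1* (6.07, SE 0.77), *Cntfr* (-3.01, SE 0.67), *Lbp* (2.95, SE 0.54), *Il4ra* (2.65, SE 0.45) and *Jak2* (2.30, SE 0.31), in the libraries whose stromal markers are given above.

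The genes most like each member were taken by the correlation of their 16 condition means on the log2 scale with those of the member, among 10579 genes with a mean of at least 5 CPM. These correlations are a description, since the means share libraries and batches. For *Lif* they were *Wee1*, a cell cycle kinase gene (r = 0.97), *Slc5a8* (0.96) and *Resf1* (0.96). For *Il6* they were *Ebf1*, a transcription factor gene (r = 0.98), the endothelin receptor gene *Ednrb* (0.97) and *Fgl2* (0.97). For *Lifr* they were *Ntn4*, *Scn7a* and *Me3* (r = 0.97, 0.96 and 0.96), for *Il6st* *Itga5*, *Dennd5a* and *Lats2* (r = 0.97 each), and for *Osmr* *Man1a*, *Slc22a15* and *Abca5* (r = 0.94, 0.94 and 0.93). For *Il6ra* they were *Tbc1d8* and *Pla2g6* (r = 0.97 and 0.96), and for *Socs3* *Phldb1*, *Prelp* and *Plcl1* (r = 0.97, 0.96 and 0.96). The closest genes to *Stat3* (*Os9*, *Ube4b* and *Golga4*, r = 0.88 each), *Cebpd* (r = 0.87 to 0.89) and *Bcl3* (*Chrnb1* and *Arfgef3*, r = 0.93 and 0.88) lay farther away, and no member was among the 3 closest genes of another.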

How the data were processed

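After an overnight cold hold of the organoids and sorting, RNA was amplified and sequenced by the authors. Reads were aligned to mm9 with GSNAP and assigned to Ensembl genes by htseq-count, and whether strand was used is not given in the sources used here. Genes below 1 CPM in 3 samples, and very highly covered genes that varied little, were dropped before deposit. The signal deposited by the authors is CPM against an effective library size from edgeR. It was a whole multiple of 1 read for 100% of the values (tolerance 0.01), so reads were recovered. On these edgeR called 4861 genes over the mean of the time points, and limma on CPM called 3580. Of 47 samples described, P14.5 basal replicate 2, set aside by the authors, was not analysed here, and 0 columns were left unused.

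limma 3.58.1 (R 4.3.3, trend) was fitted to log2(CPM + 1) with 16 condition means and Benjamini-Hochberg adjustment over 17078 genes. On this scale fold changes of low genes are understated. P-values measure the spread between pooled sorts. A lack of overlap between groups describes those libraries, and the share of all genes without overlap is not given here. Floors cover counting error only, since amplified reads include copies. The alternatives were a pseudocount of 0.1, median ratio scaling, a mean of at least 5 CPM, edgeR 4.0.16 and DESeq2 1.42.0 on recovered reads, the sort as a block, a false discovery rate of 0.05, the conditions compared alone, each library left out, Id2 left out of means and F tests, and 2 chosen after seeing the data, no Id2 at single time points and replicate 4 alone for Id2 basal cells. Luminal and basal libraries of a number came from the same sort and animals, and their deviations from the condition means correlated across genes with a median r of 0.31 over 22 sorts, 21 of them above 0. The model was tested on simulated data, with results that are not given here.

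Names came from a table of gene identifiers, which matched 16897 of 17078, and exon lengths and overlaps from a later annotation (GENCODE M21, GRCm38), with no coordinates carried over from mm9. Members and lists were chosen with earlier results of these data known. All 10 members are named, of the pathway list the called genes with the largest changes, at most 8 a comparison, and of the 3 genes most like each member those reported here. A few genes that these rules would name are not reported here.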

Additional observations from a re-analysis of the deposited data

How the results depend on the processing

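Some counts of members called stayed within 1.5 times under the alternatives run. These were basal against luminal cells over the mean (7 or 8) and over all single time points (28 to 49). Without 1 library they were 7 to 8 and 39 to 43. The Id2 differences with basal replicate 4 alone are given above. The weaning counts did not stay within 1.5 times. In luminal cells 1 member was called by limma, 0 with edgeR, 2 with DESeq2, 2 at a false discovery rate of 0.05 and 0 with the conditions compared alone, where fewer samples enter. In basal cells 1 was called by limma, 0 with edgeR, 2 at 0.05 and 0 with the conditions compared alone, and the counts ran from 0 to 1 without 1 library in both. Over all genes edgeR called 586 and DESeq2 1009 for weaning in luminal cells. In basal cells they called 1869 and 2538, with 1 member called by DESeq2. The number of all genes at a rate of 0.05 is not given here. For weaning the conditions compared alone called 0 of all genes in either cell type, in place of 779 in luminal and 2274 in basal cells. The 0 members there are thus not particular to the members. The conditions compared alone gave 1 in place of 2 members for Id2 against W10 in basal cells (467 in place of 2965 of all genes). They called 3 in place of 10 pairs of member and step in luminal cells and 4 in place of 7 in basal cells, of 60 pairs each. A rate of 0.05 gave 11 such pairs in basal cells. Over all genes the conditions compared alone also called fewer in most steps, such as 290 in place of 2974 from Id2 to Iw4 in basal cells. From P3.5 to P14.5 in luminal cells they called more, 313 in place of 260. Without Id2, 4 in place of 7 members varied in basal cells. The share of all genes without Id2 is not given here, and the cause was not tested. Without 1 library, Id2 against W10 gave 1 to 3 members in luminal and 1 to 2 in basal cells. The called pairs of member and step were then 7 to 11 in luminal and 5 to 8 in basal cells. With the sort as a replicate block the weaning counts were 1 in both cell types. At single time points 44 pairs were called, as were 8 pairs of member and step in basal cells, and no call other than those given above changed.

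The directions that reversed belonged to changes that were not called, most of them near 0. Larger ones were the *Lif* difference between cell types (0.91) and, against W10, basal *Bcl3* (0.57) and *Il6ra* (0.47). From L10 to Id2 in basal cells *Cebpd* went from -0.12 to 0.0021 with DESeq2, and *Il6ra* from -0.03 to 0.028 with median ratio scaling, 0.0094 with edgeR, 0.054 with the replicate block and 0.019 with DESeq2. Against W10, luminal *Cebpd* went from 0.38 to -0.0027 with edgeR. Leaving out 1 library reversed luminal *Lifr* (-0.29 to 0.31) and *Il6st* (-0.066 to 0.37) and basal *Il6st* (-0.36 to 0.60), *Stat3* (-0.13 to 0.31), *Cebpd* (-0.33 to 0.19), *Bcl3* (-0.19 to 0.71) and *Il6ra* (-0.49 to 0.42) from L10 to Id2, and the difference of these changes for *Lif* (-0.92 to 2.74) and *Il6st* (-0.57 to 0.40). Against W10 it reversed luminal *Il6st* (-0.034 to 0.17), *Stat3* (-0.034 to 0.16), *Cebpd* (-0.18 to 1.07) and *Bcl3* (-0.52 to 0.20), and basal *Osmr* (-0.013 to 0.24), *Cebpd* (-0.093 to 0.49), *Bcl3* (-0.066 to 1.36) and *Il6ra* (-0.11 to 1.10). The cause was not tested. The median of all genes moved from 0.06 to 0.17 with DESeq2 from L10 to Id2 in basal cells, and from 0.05 to 0.22 with edgeR for the difference between cell types.

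Depth limits *Il6* in luminal cells, at or under 3 reads in 3 libraries. Weaning changes batch and lane, conditions have 2 or 3 pooled sorts, and 2 of 3 Id2 basal libraries are low in basal markers.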
